A study of Mus musculus with 8 samples.

Results

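The IL-1 family of cytokines and receptors was examined in transplanted tumors of BALB/c mice. The tumors came from the mouse mammary carcinoma line 4T1. In the first group the fourth mammary gland had received a single local dose of 20 Gy X-rays before the cells were placed in it (preirradiated, 4 tumors). In the second group the gland had been left untreated (nonirradiated, 4 tumors). All tumors had grown for 18 days, and each gave 1 Affymetrix Mouse Gene 1.0 ST array of whole tumor RNA. The labels give neither the age of the mice, nor the time between irradiation and implantation, nor the number of mice behind the tumors, so p-values measure the spread between these tumors, part of which may be technical. The family was given as a list of 10 genes: Il1a, Il1b, Il1rn, Il1r1, Il1r2, Il1rap, Il33, Il1rl1, Il18 and Il18bp. Each was represented by the probe set that names it alone, with the highest mean over the 8 arrays where there were several. By this rule 8 of the 10 genes, of 19937 named genes in all, had a probe set, and each of the 8 had exactly 1. Il1r1, the signalling receptor for IL-1, and Il1rl1, the receptor for IL-33 also called ST2, were not analysed here.

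IL-1alpha and IL-1beta bind the same receptor, which recruits the accessory protein IL-1RAP and signals through MyD88 and IRAK kinases to NF-kB. The pathway is held back at several steps: the receptor antagonist encoded by Il1rn occupies the receptor without signalling, the decoy receptor encoded by Il1r2 binds IL-1 without signalling, and the IL-18 binding protein takes IL-18 away from its own receptor. IL-1beta and IL-18 are made as precursors that caspase-1 cuts inside inflammasomes, while IL-1alpha and IL-33 act as alarm signals from damaged cells. IL-1 is known for drawing neutrophils into tumors, and IL-18 for driving interferon gamma production in T and NK cells.

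The promoters of Il1a, Il1b and Il1r2 are shown because these 3 genes varied most from tumor to tumor, while their group means differed by less than that spread. Sequences are from RefSeq on GRCm38.p6, from 250 bases before to 50 bases after the annotated start, read 5′ to 3′ on the strand of the gene. Il1a lies at chr2:129309923-129310222 and Il1b at chr2:129371090-129371389, both on the minus strand. Il1r2 lies at chr1:40085843-40086142 on the plus strand. Capitals mark matches to the motifs searched.
Il1a: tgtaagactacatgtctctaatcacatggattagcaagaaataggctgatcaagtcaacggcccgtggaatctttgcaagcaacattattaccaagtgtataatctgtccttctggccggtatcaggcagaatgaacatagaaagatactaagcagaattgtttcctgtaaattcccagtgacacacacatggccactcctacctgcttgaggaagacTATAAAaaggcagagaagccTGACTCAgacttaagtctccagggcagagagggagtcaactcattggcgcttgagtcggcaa
Il1b: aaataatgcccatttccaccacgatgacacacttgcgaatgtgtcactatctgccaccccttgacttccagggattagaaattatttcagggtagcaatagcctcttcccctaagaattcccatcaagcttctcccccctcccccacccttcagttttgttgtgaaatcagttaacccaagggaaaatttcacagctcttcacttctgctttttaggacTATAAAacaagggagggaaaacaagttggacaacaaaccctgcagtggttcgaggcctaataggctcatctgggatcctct
Il1r2: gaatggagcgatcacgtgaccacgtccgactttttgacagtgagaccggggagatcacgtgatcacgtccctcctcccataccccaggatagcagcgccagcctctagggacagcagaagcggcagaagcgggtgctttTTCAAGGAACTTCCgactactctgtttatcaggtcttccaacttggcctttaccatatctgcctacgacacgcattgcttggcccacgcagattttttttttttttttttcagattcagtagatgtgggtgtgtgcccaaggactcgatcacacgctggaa

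All 10 listed genes had RefSeq promoters, 15 in all, and 5 motifs were searched on both strands: TATAAA (the core of a TATA box), TGANTCA (AP-1), TTCNNNGAA (STAT factors), GGAANTTCC (a kappaB type) and GAAANNGAA (part of an interferon response element). TATAAA stands 32 bases before the start in Il1a, 31 bases before it in Il1b and 29 bases before it in 1 promoter of Il33. With matches elsewhere in Il18, Il1rn and a further Il33 promoter, 6 of the 15 hold these letters, as do 13.6% of all 32851 promoters in the table. TGANTCA occurs in Il1a and in 1 promoter of Il1rn, against 7.81% of all promoters, and in Il1a it does not overlap the TATAAA. TTCNNNGAA occurs in Il1r2 alone among the listed genes, with its first base 111 bases before the start, against 8.30% of all promoters. It overlaps a match to GGAANTTCC, whose first base is 106 bases before the start. Those letters occur in 0.928% of all promoters and, among the listed genes, in Il1r2 and in 1 promoter of Il1rl1. GAAANNGAA occurs in Il1rap alone (8.56% of all). These 5 motifs were settled after the matches of a larger set of motifs in these promoters had been looked at, and a narrower kappaB form tried before GGAANTTCC had no match in them. The full kappaB consensus, counted afterwards, occurs in 1 of the 15 promoters, that of Il1r1 and not of Il1r2, against 8.46% of all. The choice of letters thus sets which genes match, and the matches describe the letters in this window and nothing more.

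Values are log2 RMA signals, the authors' normalized expression values, in which a difference of 1 is a doubling of signal. Epithelial markers of the 4T1 carcinoma were measured in 10 genes, and all 10 were higher in preirradiated tumors, with a median log2 difference of 0.20. Their list mean was 9.69 to 10.26 in preirradiated and 9.57 to 9.78 in nonirradiated tumors, and the part of carcinoma cells in the members' values was not tested. Of these, 0 passed the adjusted threshold. The groups did not overlap in 1 of the 10, Krt7, against 3.36% of all probe sets. Krt7, a keratin, had 10.58 to 10.86 in preirradiated and 10.23 to 10.48 in nonirradiated tumors (difference 0.39, limma adjusted p = 0.620). Krt8, a keratin of simple epithelium, averaged 12.60 ± 0.03 in preirradiated and 12.53 ± 0.05 in nonirradiated tumors (SD, n = 4 each), and Epcam averaged 9.55 ± 0.44 and 9.34 ± 0.19. Preirradiated tumors 1 and 3 stood apart in skeletal muscle genes, whose mean over 12 markers was 9.07 and 10.49 in them, against 6.11 and 6.27 in preirradiated tumors 2 and 4 and 6.06 to 6.35 in nonirradiated tumors. Preirradiated tumor 1 also stood apart in adipocyte genes, with a mean of 7.72 over 7 measured markers, against 6.12 to 6.28 in the other preirradiated and 5.99 to 6.40 in nonirradiated tumors. All 7 were higher in preirradiated tumors. The differences of the members are therefore also given without tumors 1 and 3, and the part of muscle and fat in the members' values was not tested. In whole tumors, fewer cells of a type and less RNA per cell cannot be told apart.

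No member of the family passed the test between the groups. In limma over 34738 probe sets, 0 of the 8 measured members, and 0% of all probe sets, had a Benjamini-Hochberg adjusted p under 0.05. The lowest adjusted p among members was 0.812, for Il18. The study's own filter (unadjusted p of at most 0.05, a log2 difference of at least 0.4 and a mean of at least 4) was passed by 0 of 8 members and by 0.642% of all probe sets. At an unadjusted p under 0.05 there was 1 member, Il18, against 5.80% of all probe sets. The groups overlapped in all 8 members, whereas they did not overlap in 3.36% of all probe sets. Of the members 4 were higher and 4 lower in preirradiated tumors, with a median log2 difference of 0.04, and over all probe sets 49.5% were higher with a median of -0.0009.

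**Figure D1:**
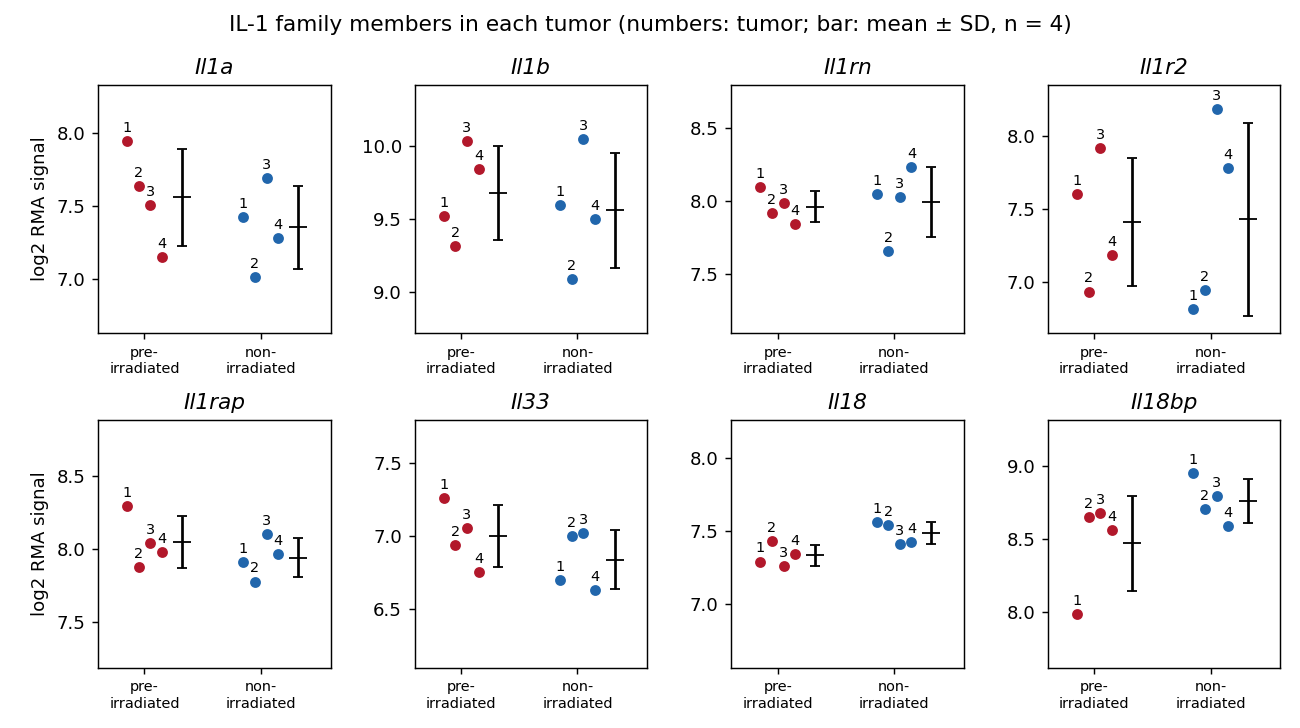
log2 RMA signal (vertical axis) of the 8 measured members in each preirradiated (left, red) and nonirradiated (right, blue) tumor; numbers are tumors, bars are mean ± SD of 4, and all panels span the same log2 range. The groups overlap in every panel, Il1r2 has the widest spread, and preirradiated tumor 1 is low in Il18bp at 7.99.

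Among the agonists, Il1a (probe set 10487588), the membrane-bound and nuclear alarm form of IL-1, had 7.95, 7.64, 7.51 and 7.15 in preirradiated tumors 1 to 4, against 7.43, 7.02, 7.69 and 7.28 in nonirradiated tumors 1 to 4. Preirradiated tumor 1 was the highest and nonirradiated tumor 2 the lowest of all 8, and the other values interleaved. The log2 difference, preirradiated minus nonirradiated, was 0.21 (SE 0.19, 95% interval -0.22 to 0.64, limma adjusted p = 0.952). Omitting preirradiated tumor 1 gave 0.08 and omitting nonirradiated tumor 2 gave 0.09. It was 0.34 without preirradiated tumor 4, 0.32 without nonirradiated tumor 3, and 0.04 without preirradiated tumors 1 and 3.

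Il1b (probe set 10487597), the secreted inflammasome-dependent form, had 9.52, 9.31, 10.03 and 9.84 in preirradiated tumors and 9.59, 9.09, 10.05 and 9.50 in nonirradiated tumors. Tumor 3 was the highest and tumor 2 the lowest in both groups, and the 2 highest values, 10.03 and 10.05, came from different groups. Here and below, same-numbered tumors of the 2 groups were not taken as pairs. The difference was 0.12 (SE 0.22, 95% interval -0.38 to 0.62, adjusted p = 0.983), smaller than the SDs of 0.32 and 0.39 within the groups. Its sign turned without nonirradiated tumor 2, to -0.04, and it was 0.02 without preirradiated tumors 1 and 3.

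Il33 (probe set 10462442), an alarm cytokine kept in the nuclei of stromal, endothelial and epithelial cells, had 7.26, 6.94, 7.05 and 6.76 in preirradiated tumors and 6.70, 7.00, 7.02 and 6.63 in nonirradiated tumors. Preirradiated tumors 1 and 3 held the 2 highest values and the rest overlapped. The difference of 0.16 (SE 0.13, 95% interval -0.13 to 0.46, adjusted p = 0.940) was 0.007 without those tumors and 0.08 without preirradiated tumor 1. It was 0.09 without nonirradiated tumor 4 and 0.25 without preirradiated tumor 4. Genes of fibroblasts moved with the group: 9 of 10 measured markers were higher in preirradiated tumors, and the list mean was 9.48 to 9.86 in preirradiated and 9.16 to 9.44 in nonirradiated tumors. Blood endothelium markers were higher in 8 of 8, with list means of 8.45 to 8.76 and 8.34 to 8.56. The part of either in the Il33 values was not tested.

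Il18 (probe set 10585194), the inducer of interferon gamma, had the smallest spread of the members and was slightly lower in preirradiated tumors, at 7.29, 7.43, 7.26 and 7.34, against 7.56, 7.54, 7.41 and 7.43 in nonirradiated tumors. Preirradiated tumor 2 lay just above nonirradiated tumors 3 and 4, and the other 3 preirradiated tumors lay below all nonirradiated tumors. The means were 7.33 ± 0.07 and 7.48 ± 0.08 (SD, n = 4 each), a difference of -0.15 (SE 0.054, 95% interval -0.28 to -0.03) with a limma adjusted p of 0.812. Its unadjusted p, under 0.05 with all 8 tumors, is no call over the array. The exact two-sided permutation test over the 70 assignments of 8 tumors gave p = 0.0857, where the smallest it can give is 0.0286. The unadjusted limma p was no longer under 0.05 without preirradiated tumor 1, preirradiated tumor 3, nonirradiated tumor 1 or nonirradiated tumor 2. Without preirradiated tumors 1 and 3 the difference was -0.10. Macrophage and monocyte markers, from cells that make IL-18, were lower in 12 of 12 measured genes. Their list mean was 10.26 to 10.36 in preirradiated and 10.32 to 10.56 in nonirradiated tumors. In nonirradiated tumors both this mean and Il18 were highest in tumor 1 and lowest in tumor 3. In preirradiated tumors, tumor 3 had the highest list mean and the lowest Il18. Carcinoma epithelium markers went the other way, higher in 10 of 10. The part of either cell type in the Il18 values was not tested.

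Of the inhibitors, Il1rn (probe set 10469816), the receptor antagonist, had 8.10, 7.92, 7.99 and 7.85 in preirradiated tumors and 8.05, 7.66, 8.03 and 8.24 in nonirradiated tumors. The preirradiated values all lay within the range of the nonirradiated ones. The difference was -0.03 (SE 0.12, 95% interval -0.30 to 0.24), and it turned to 0.05 without nonirradiated tumor 4 and 0.01 without preirradiated tumor 4. It was -0.14 without nonirradiated tumor 2 and -0.11 without preirradiated tumors 1 and 3.

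Il1r2 (probe set 10345752), the decoy receptor, was the most variable member, with an SD of 0.52 over the 8 tumors. It had 7.60, 6.94, 7.92 and 7.19 in preirradiated tumors, against 6.81, 6.94, 8.19 and 7.78 in nonirradiated tumors. Both groups spanned low and high tumors, with the highest value in nonirradiated tumor 3 and the next in preirradiated tumor 3. The group means were 7.41 ± 0.44 and 7.43 ± 0.66 (SD, n = 4 each), a difference of -0.02 with a 95% interval of -0.80 to 0.76, so the data leave room for a change of either sign. Leaving out single tumors moved it between -0.23 (without nonirradiated tumor 1) and 0.23 (without nonirradiated tumor 3), and it was -0.37 without preirradiated tumors 1 and 3.

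Il18bp (probe set 10566050), the soluble inhibitor of IL-18 and itself known to be induced by interferon gamma, had the largest difference of the members. Preirradiated tumors had 7.99, 8.66, 8.68 and 8.56, against 8.95, 8.71, 8.79 and 8.59 in nonirradiated tumors. Preirradiated tumor 1 was far below the other 7, which lay between 8.56 and 8.95. The difference was -0.29 (SE 0.16, 95% interval -0.65 to 0.07, limma adjusted p = 0.882). With preirradiated tumor 1 left out it was -0.13, and with preirradiated tumors 1 and 3 left out -0.15.

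Il1rap (probe set 10434845), the accessory chain shared by the receptors for IL-1 and IL-33, had 8.29, 7.87, 8.04 and 7.98 in preirradiated tumors and 7.91, 7.77, 8.10 and 7.96 in nonirradiated tumors. Apart from preirradiated tumor 1 at the top, the values overlapped. The difference was 0.11 (SE 0.10, 95% interval -0.12 to 0.34, adjusted p = 0.956), and -0.01 without preirradiated tumors 1 and 3. Omitting preirradiated tumor 1 gave 0.03 and omitting nonirradiated tumor 2 gave 0.05, whereas omitting preirradiated tumor 2 or nonirradiated tumor 3 gave 0.17 and 0.16.

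An agonist can also be read against its inhibitor within each tumor, as the difference of the 2 log2 signals, whose absolute size depends on the probes and has no meaning of its own. Il1b minus Il1rn was 1.42, 1.39, 2.05 and 1.99 in preirradiated tumors and 1.54, 1.43, 2.01 and 1.26 in nonirradiated tumors. Tumor 3 was high in both groups, and the means of 1.71 ± 0.36 and 1.56 ± 0.32 differed by less than 1 SD. Il1a minus Il1rn averaged -0.40 ± 0.24 and -0.64 ± 0.25, again with overlap. Il18 minus Il18bp was -0.70 in preirradiated tumor 1, against -1.42 to -1.22 in the other preirradiated tumors and -1.39 to -1.16 in nonirradiated tumors.

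The nearest profiles to Il1r2 included genes of neutrophils, and Il1b shared its highest and lowest tumors with the mean of neutrophil markers. Likeness was measured as the root mean square difference between profiles centred on their mean over the 8 tumors, among 17217 named genes. The nearest genes to Il1r2 were Cxcr2, the neutrophil chemokine receptor (0.16 on the log2 scale), S100a8, a subunit of the neutrophil protein calprotectin (0.16), and Chil1, a chitinase-like protein of myeloid cells (0.17). Cxcr2 had 7.10, 6.29, 7.34 and 6.98 in preirradiated tumors, against 6.50, 6.32, 7.89 and 7.21 in nonirradiated tumors. As for Il1r2, nonirradiated tumor 3 was the highest and preirradiated tumor 3 the next. S100a8 had 7.70, 7.11, 8.22 and 7.71 in preirradiated tumors and 7.33, 7.38, 8.63 and 7.94 in nonirradiated tumors. The nearest to Il1b were Eln, the matrix protein elastin (0.15), Adam8, a metalloprotease of leukocytes (0.17), and Clec4d, a myeloid C-type lectin (0.17). Of 14 measured neutrophil markers 4 were higher and 10 lower in preirradiated tumors, with a median difference of -0.06. Ngp was the 1 marker past the study's filter (difference -0.54, limma adjusted p = 0.840), against 0.642% of all probe sets. The mean of the 14 was 7.40, 7.14, 7.68 and 7.35 in preirradiated and 7.24, 7.10, 7.97 and 7.45 in nonirradiated tumors. Tumor 3 was thus the highest and tumor 2 the lowest of each group, as for Il1b. The lowest nonirradiated tumor for Il1r2 was tumor 1 instead. The 14 markers did not all run this way. Tumor 3 was the highest in 8 of 14 markers in preirradiated and in 13 of 14 in nonirradiated tumors, and tumor 2 the lowest in 7 and 8. In preirradiated tumors Padi4, an enzyme of neutrophil granulocytes, was highest in tumor 2 (10.78) and lowest in tumor 3 (10.63), and Mmp9, a gelatinase of neutrophils, had 11.17 in tumor 3, against 11.38 and 11.37 in tumors 1 and 2. These likenesses are descriptions over 8 arrays that share the same normalization, and the part of neutrophil content in the Il1r2 and Il1b values was not tested.

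**Figure D2:**
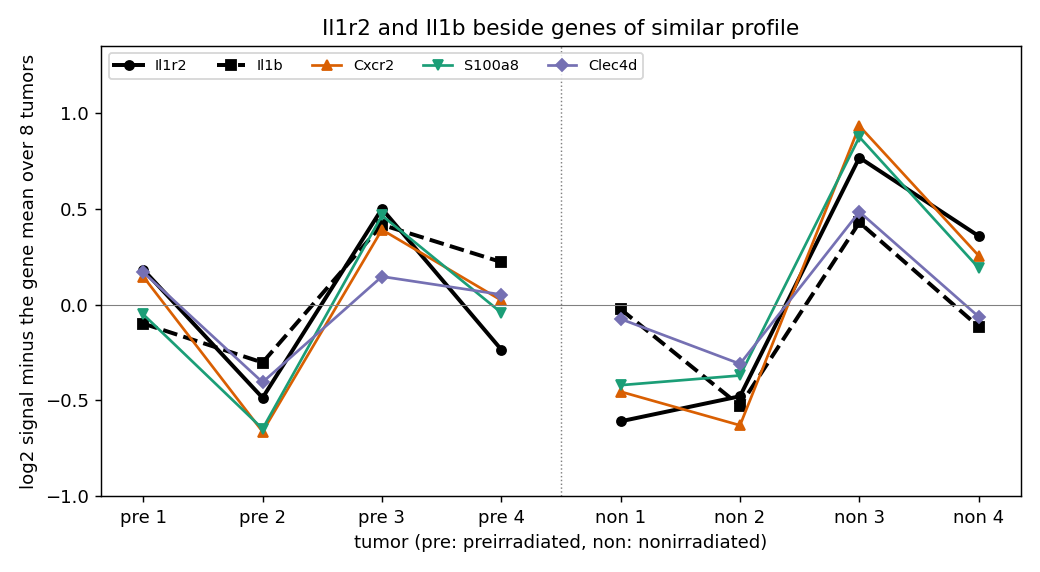
log2 signal minus each gene's mean over the 8 tumors (vertical axis) in preirradiated tumors 1 to 4 (left) and nonirradiated tumors 1 to 4 (right), for Il1r2, Il1b and 3 genes of myeloid cells picked from their nearest profiles (Chil1 and, nearer to Il1b than Clec4d, Eln and Adam8 are not drawn). Tumor 3 is the highest of its group for Il1r2, Il1b, Cxcr2 and S100a8, and tumor 2 is low in all 5 genes in both groups.

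Il1a followed other genes. Nearest to it were Bhlhe40, a transcriptional repressor (0.11), Tnfrsf26, a member of the TNF receptor family (0.12), and Has2, a hyaluronan synthase (0.13). Has2 had 10.12, 9.98, 9.72 and 9.45 in preirradiated tumors, against 9.59, 8.93, 9.75 and 9.42 in nonirradiated tumors. Like Il1a, it was highest in preirradiated tumor 1 and lowest in nonirradiated tumor 2.

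The low Il18bp of preirradiated tumor 1 stood beside a low mean of Ifng and interferon-induced genes, a list chosen after their values were known. Of its 8 genes 6 were measured, Ifng among them. Their mean was 8.47 in preirradiated tumor 1, against 9.07 to 9.22 in the other preirradiated tumors and 8.97 to 9.61 in nonirradiated tumors. Irf1, a transcription factor induced by interferon gamma, had 9.95, 10.50, 10.29 and 10.41 in preirradiated tumors and 10.68, 10.43, 10.62 and 10.32 in nonirradiated tumors. Preirradiated tumor 1 was the lowest of the 8 tumors and nonirradiated tumor 1 the highest in Irf1, Gbp3, Cxcl9 and Cxcl10, as in Il18bp. Socs1, also on the list, was lowest in preirradiated tumor 1 (8.10) as well, but highest in nonirradiated tumor 2 (8.73). Ifng itself had 5.61 in preirradiated tumor 1, within the 5.58 to 6.06 of the other 7 tumors. Outside nonirradiated tumor 1 its values lay below the median of every array, and in all tumors they lay above the lower quartile of every array. Whether a signal at this level would show a drop was not tested. T and NK cell markers had their lowest list mean in the same tumor, 5.97, against 6.15 to 6.46 in the other preirradiated and 6.30 to 6.81 in nonirradiated tumors. All 12 measured T and NK genes were lower in preirradiated tumors, and the part of these cells in the Il18bp values was not tested.

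Outside the 8 members, the accessory chain of the IL-18 receptor had the largest difference of the other family genes, and the ligand-binding chain had not. Il18rap, the signalling accessory chain of the IL-18 receptor, had 6.29, 5.99, 6.08 and 6.14 in preirradiated tumors, against 5.74, 5.67, 5.84 and 5.70 in nonirradiated tumors. The groups did not overlap, as in 3.36% of all probe sets, with every preirradiated value above the highest nonirradiated one. All nonirradiated values lay below the median of every array. Preirradiated tumor 2 lay within the range of the array medians, and the other preirradiated tumors lay above it. Whether this signal level affects the comparison was not tested. The log2 difference was 0.39 (SE 0.069, 95% interval 0.23 to 0.55), or 1.31-fold. It did not pass over the whole array (limma adjusted p = 0.595). It was just below the 0.4 of the study's filter, and 0.33 without preirradiated tumors 1 and 3. Il18r1, the ligand-binding chain, had 4.83, 4.99, 4.94 and 4.74 in preirradiated tumors and 4.88, 4.87, 4.79 and 4.77 in nonirradiated tumors, a difference of 0.04 (SE 0.061). Its values lay below the lower quartile of every array.

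**Figure D3:**
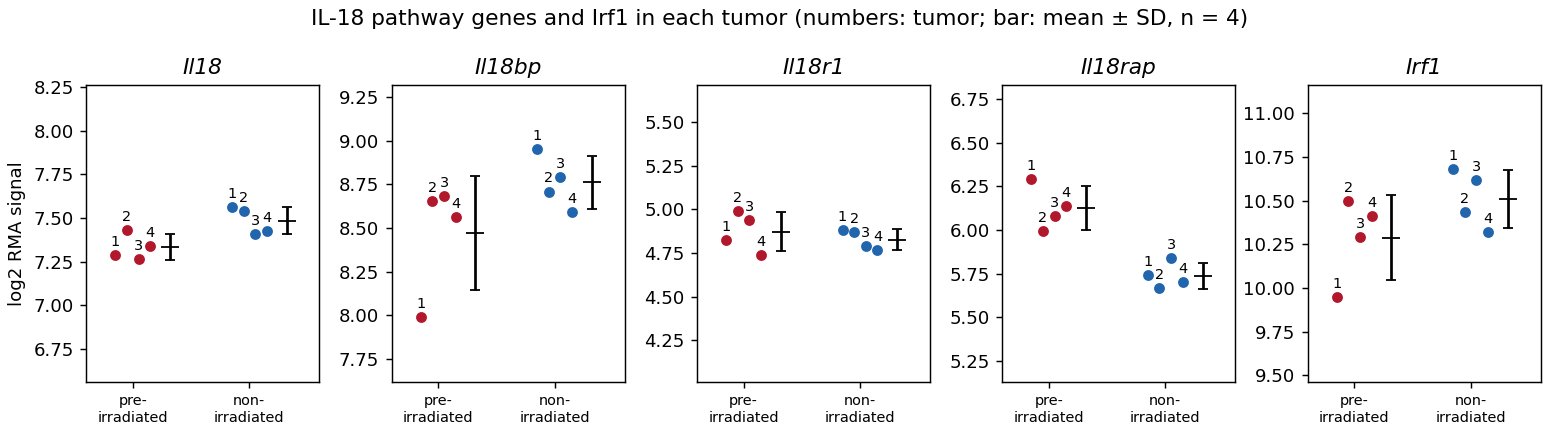
log2 RMA signal (vertical axis, same log2 range in each panel) of Il18, Il18bp, both IL-18 receptor chains and Irf1 in each preirradiated (left, red) and nonirradiated (right, blue) tumor; numbers are tumors and bars are mean ± SD of 4. Il18rap is 5.99 to 6.29 in preirradiated and 5.67 to 5.84 in nonirradiated tumors with no overlap, and preirradiated tumor 1 is lowest in Il18bp and Irf1.

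Of the other family genes 11 were measured, with 6 higher and 5 lower, a median difference of 0.0007, 0 past the adjusted threshold or the study's filter, and 2 at an unadjusted p under 0.05, Il18rap and Sigirr, against 5.80% of all probe sets. Sigirr, an inhibitory receptor of the family, had 8.85, 8.92, 8.85 and 9.03 in preirradiated tumors and 9.15, 9.16, 8.99 and 9.001 in nonirradiated tumors, a difference of -0.16 (SE 0.062, adjusted p = 0.828). Preirradiated tumor 4 lay within the nonirradiated range. Without preirradiated tumors 1 and 3 the difference was -0.10. Il1rl2, the receptor for the IL-36 cytokines, differed by 0.22 (SE 0.11) with overlap, by 0.14 without preirradiated tumor 1 and by 0.13 without preirradiated tumors 1 and 3. Il1f9, an IL-36 cytokine, had 5.83, 5.37, 5.91 and 5.56 in preirradiated and 5.35, 5.40, 6.19 and 5.72 in nonirradiated tumors, with tumor 3 the highest of each group. The other IL-36 and related ligands Il1f5, Il1f6, Il1f8 and Il1f10 and the receptors Il1rapl1 and Il1rapl2 differed by -0.03 to 0.02. The group means of Il1f6, Il1f8, Il1rapl1 and Il1rapl2 lay below the lower quartile of every array. Those of Il1f10 and Il1f5, 5.03 to 5.27, lay near it. Signals this low leave little room to see a change.

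**Figure D4:**
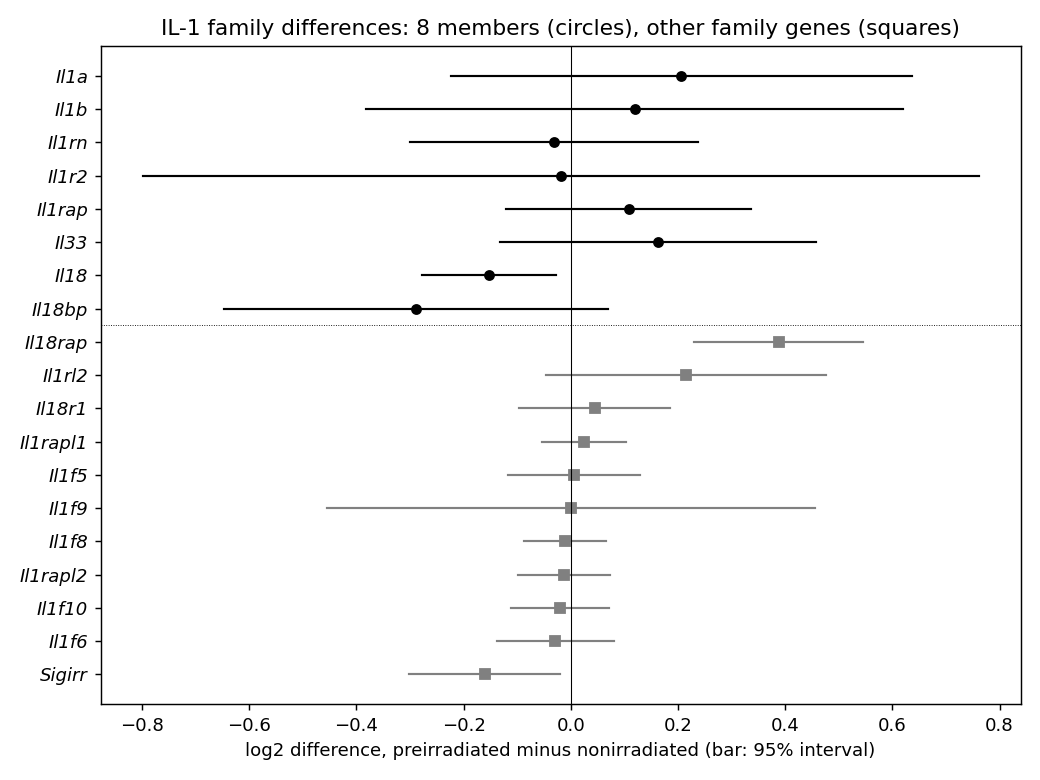
log2 difference between preirradiated and nonirradiated tumors (horizontal axis) with its 95% interval from limma, for the 8 members (circles) and 11 other family genes (squares). The intervals of Il18, Il18rap and Sigirr do not include 0 before any correction for the number of probe sets, and the widest interval is that of Il1r2, from -0.80 to 0.76.

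Further along the pathway, the genes between receptor and NF-kB had small differences. Of 16 measured signalling genes 8 were higher and 8 lower, with a median of -0.005, and 2 had an unadjusted p under 0.05, both lower, against 5.80% of all probe sets. Myd88 is the adaptor of the signalling receptors for IL-1, IL-18 and IL-33. It had 10.37, 10.40, 10.40 and 10.33 in preirradiated tumors and 10.60, 10.53, 10.53 and 10.47 in nonirradiated tumors. The groups did not overlap in 2 of the 16 genes, Myd88 and Irak1, against 3.36% of all probe sets. The difference in Myd88 was -0.16 (SE 0.039, limma adjusted p = 0.651). It was -0.17 without preirradiated tumors 1 and 3. Irak1, the kinase that MyD88 recruits, differed by -0.10 (SE 0.036), with 9.02 to 9.10 in preirradiated and 9.13 to 9.20 in nonirradiated tumors, and by -0.07 without preirradiated tumors 1 and 3. Map3k8, a kinase downstream, differed by 0.13 (SE 0.065), and by 0.06 without preirradiated tumors 1 and 3.

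Of 11 inflammasome and processing genes 10 were lower, with a median difference of -0.09, and 0 had an unadjusted p under 0.05. Casp1, the protease that matures IL-1beta and IL-18, had 8.20, 8.89, 8.45 and 8.30 in preirradiated tumors and 9.04, 8.42, 8.79 and 8.65 in nonirradiated tumors. The groups overlapped, and the difference was -0.26 (SE 0.17, adjusted p = 0.914). It was -0.40 without preirradiated tumor 2, where it passed the study's filter, -0.16 without nonirradiated tumor 1 and -0.13 without preirradiated tumors 1 and 3. Nlrc4, an inflammasome sensor, and Casp4, the caspase of the noncanonical inflammasome, differed by -0.09 (SE 0.049) and -0.14 (SE 0.11). Nlrc4 was -0.06 without nonirradiated tumor 1. Casp4 was -0.05 without nonirradiated tumor 3, -0.09 without preirradiated tumor 4 and -0.23 without nonirradiated tumor 2.

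Known targets of IL-1 and NF-kB went both ways, with 9 of 21 higher, 12 lower and a median of -0.02. At an unadjusted p under 0.05 there were 2 of 21, Mmp3 and Icam1, against 5.80% of all probe sets. Mmp3, the protease stromelysin 1, was the 1 gene of this list past the study's filter, against 0.642% of all probe sets. It had 8.89, 8.29, 9.01 and 8.63 in preirradiated tumors and 8.23, 8.11, 8.49 and 8.37 in nonirradiated tumors. Preirradiated tumor 2 lay within the nonirradiated range and the other 3 lay above it. The difference was 0.40 (SE 0.16, limma adjusted p = 0.828), and 0.16 without preirradiated tumors 1 and 3. Icam1, the adhesion molecule for leukocytes, differed by -0.19 (SE 0.072), and by -0.13 without preirradiated tumor 1. Ccl20, a chemokine, differed by -0.08 (SE 0.053), and by -0.04 without nonirradiated tumor 3. The list mean was highest in nonirradiated tumor 3, 8.36, and lowest in preirradiated tumor 2, 7.87.

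Genes of cells that answer IL-33 were measured in 9 cases, with 4 higher and 5 lower and a median of -0.01. Il2ra, a receptor chain of regulatory T cells and innate lymphoid cells, had 6.32, 6.25, 6.47 and 6.36 in preirradiated tumors and 6.79, 6.33, 6.91 and 6.56 in nonirradiated tumors, a difference of -0.30 (SE 0.12). Nonirradiated tumor 2 lay within the preirradiated range. Rora, a nuclear receptor of innate lymphoid and many other cells, differed by 0.36 (SE 0.16), by 0.21 without preirradiated tumor 3 and by 0.12 without preirradiated tumors 1 and 3. Il4, a type 2 cytokine, differed by 0.09 (SE 0.037), and by 0.06 with each array centred on its median. Its values, 5.35 to 5.54, lay below the median of every array. These 3 of 9 genes had an unadjusted p under 0.05, against 5.80% of all probe sets, and an adjusted p of at least 0.840. Rora kept the unadjusted p under 0.05 in 6 of 17 alternatives, Il4 in 6 of 16 and Il2ra in 11 of 17. Mast cells, which respond to IL-33, had 10 measured markers, 8 of them lower, with list means of 6.02 to 6.26 in preirradiated and 6.14 to 6.19 in nonirradiated tumors. Skin epidermis markers come from a tissue that makes Il1a, Il18, Il1rn and Il33. Their list mean was high in preirradiated tumor 3 (6.66) and nonirradiated tumor 4 (6.67), against 5.62 to 5.87 in the other 6 tumors. Not every marker ran this way, and Krt14 was highest in preirradiated tumor 2 (8.35). Il1rn was highest in nonirradiated tumor 4 (8.24), but in preirradiated tumor 3 it had 7.99, below preirradiated tumor 1 (8.10). Il1a, Il18 and Il33 were not highest in either preirradiated tumor 3 or nonirradiated tumor 4.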

How the data were processed

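Total RNA of 8 whole tumors was measured on 8 arrays. The deposited log2 signals, 1 per probe set, were made by the authors with RMA in the affy package per the series' design text, and with R 2.15.3 per the submitters' processing notes. RMA equalizes the arrays, so a change in total RNA cannot be seen. The chip description file and its build are not given in the sources used here. Arrays ran with medians of 5.94 to 6.00, and their number limits the precision.

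Probe sets were named from the platform annotation: 21640 of 34760 list 1 symbol, 1321 several and 11799 none. A check by Entrez ID against RefSeq (GRCm38.p6) changed 0 symbols. The 34738 probe sets with a mean of at least 4 were fitted with limma 3.58.1 in R 4.3.3 (lmFit, eBayes, two-sided), preirradiated minus nonirradiated, adjusted by Benjamini-Hochberg over all of them. The fit was tested on simulated data. The members, gene lists and tests were chosen with earlier results of these data known. Text genes are the members, other family genes, the 3 with the smallest p in each pathway list, and the 3 nearest profiles of the 3 most variable members. Krt7, Krt8, Krt14, Epcam, Ngp, Padi4, Mmp9, Irf1, Gbp3, Cxcl9, Cxcl10, Socs1 and Ifng were named after their values were seen. Alternatives covered the expression limit, variance model, normalization, centring, array weights, the replicate block, 1 probe set per gene, and left-out tumors. Same-numbered tumors had correlations of their deviations from the group means of -0.29 to -0.08, so the numbers were not taken to pair them.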

Additional observations from a re-analysis of the deposited data

How the results depend on the processing

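With 4 tumors a group, differences in the most variable members could be seen only if large: the 95% interval of Il1r2 spans -0.80 to 0.76. Under 17 alternatives, 0 of the 8 members passed the adjusted threshold or the study's filter, and Il1a, Il33, Il18 and Il18bp kept their direction. Leaving out 1 tumor at a time, the difference of Il1b ranged from -0.037 to 0.28, that of Il1rn from -0.14 to 0.049, and that of Il1r2 from -0.23 to 0.23. Their signs turned among these settings: Il1b was -0.0001 without preirradiated tumor 3, and Il1r2 was 0.14, 0.06 and 0.10 without preirradiated tumor 2, preirradiated tumor 4 and nonirradiated tumor 4. Without preirradiated tumors 1 and 3 together, Il1rap was -0.013. Probe sets past the study's filter numbered 223, 102 with 1 probe set per gene, where fewer were tested, and 181 to 385 with 1 tumor left out, the highest counts being 335 without preirradiated tumor 2 and 385 without preirradiated tumor 4. With the replicate block there were 193, and the block changed no call of a member. Il18rap kept its direction and an unadjusted p under 0.05 in all 16 alternatives that tested it, from 0.33 to 0.43, passed the study's filter in 3 and the adjusted threshold in 0. At a mean of at least 6 it was not tested. Myd88 kept its direction and an unadjusted p under 0.05 in all 17, while Irak1 and Sigirr kept theirs in 9 of 17, Icam1 in 11 of 17, Rora in 6 of 17 and Il4 in 6 of 16. Casp1 passed the study's filter in 1 of 17. Mmp3 passed the study's filter in 11 of 17 and ranged from 0.16 to 0.54. The cause of these shifts was not tested.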

Other observations

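Saa3, an acute-phase protein induced by IL-1 and named after its values were seen, varied from tumor to tumor: it had 8.83, 6.82, 8.74 and 8.53 in preirradiated tumors, against 7.92, 8.20, 9.15 and 8.33 in nonirradiated tumors. Preirradiated tumor 2 lay below all 7 others. The same tumor had the lowest list mean of IL-1 and NF-kB targets, but Saa3 is on that list and its low value is part of that mean. Cxcl2, a neutrophil chemokine also named after its values were seen, had 7.04, 5.95, 7.34 and 6.83 in preirradiated and 6.08, 6.40, 7.88 and 6.91 in nonirradiated tumors. Tumor 3 was the highest of each group in Cxcl2, as for Il1b and Il1r2. The groups overlapped in both genes, and their differences were -0.17 (SE 0.46) and -0.03 (SE 0.42).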
